A study of Mus musculus with 50 samples.

Results

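The genes described here are Scgb1b27, Scgb2b27, Prol1, Dcpp1 and Dcpp2, which code for proteins that glands secrete into saliva. They are 5 of the 22180 genes that had a probe set of their own on the arrays, and they were picked from a list of secreted proteins because their levels differed very widely between tumours, so their spread is described and not tested. The data are 50 Affymetrix arrays, each from 1 biopsy of a mammary tumour taken before drug treatment, and the tumours form 1 group. All mice were females of the F1Bx backcross, in which hybrids of C57BL/6J and FVB/NJ were crossed to FVB/NJ mice with MMTV-Erbb2, so that inherited segments can differ between mice. The transgene puts Erbb2 under the mammary tumour virus promoter, which is active in mammary epithelium. Ages, responses and batches were not among the labels, and the drug named is doxorubicin in the series title but docetaxel in the sample protocols. A tumour is given its short name from the title, for example mid130.

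Salivary and mammary glands are both branched exocrine glands that load proteins into secretory vesicles and release them through ducts. Scgb1b27 codes for an alpha subunit and Scgb2b27 for a beta or gamma subunit of the mouse salivary androgen-binding proteins, small disulfide-linked dimers of the secretoglobin family that mice deposit on their coats with saliva. Prol1, also known as Muc10, codes for a proline-rich mucin-type protein of the mouse submandibular gland, and its gene lies beside the casein genes. Dcpp1 and Dcpp2 code for demilune cell and parotid proteins, secreted by the sublingual and parotid glands.

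The sequences just upstream of the 5 genes are shown because they show which of the genes are near copies of one another. RefSeq promoter sequences on the build GRCm38.p6 were found for 5 of 5 genes, and the 250 bases before each start are printed, read along the gene's strand. Scgb1b27 (chr7:34021231-34021480, plus strand) and Scgb2b27 (chr7:34013943-34014192, minus strand) are next to each other and point apart, and Prol1 lies at chr5:88317062-88317311 on the plus strand. In these 3 sequences the capitals mark matches to CANNTG, the motif of basic helix-loop-helix factors, which reads the same on both strands.
Scgb1b27: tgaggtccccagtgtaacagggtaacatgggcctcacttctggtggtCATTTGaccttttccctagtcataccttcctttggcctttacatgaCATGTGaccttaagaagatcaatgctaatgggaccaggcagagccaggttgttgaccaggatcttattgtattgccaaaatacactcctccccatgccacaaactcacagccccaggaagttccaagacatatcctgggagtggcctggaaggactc
Scgb2b27: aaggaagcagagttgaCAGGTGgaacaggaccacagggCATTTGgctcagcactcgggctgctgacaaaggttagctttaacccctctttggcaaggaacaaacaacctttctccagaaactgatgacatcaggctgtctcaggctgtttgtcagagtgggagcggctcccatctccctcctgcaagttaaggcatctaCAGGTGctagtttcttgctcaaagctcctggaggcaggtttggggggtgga
Prol1: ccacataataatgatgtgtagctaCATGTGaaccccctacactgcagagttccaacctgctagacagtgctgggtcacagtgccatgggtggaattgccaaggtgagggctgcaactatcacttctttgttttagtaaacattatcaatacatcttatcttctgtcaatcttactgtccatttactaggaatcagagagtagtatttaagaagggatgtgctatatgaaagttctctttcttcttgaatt

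The Dcpp genes follow one another on the plus strand of chromosome 17, Dcpp1 at chr17:23880626-23880875, Dcpp2 at chr17:23898472-23898721 and the third family gene, Dcpp3, at chr17:23917208-23917457. In the sequences of Dcpp2 and Dcpp3, capitals mark the bases that differ from Dcpp1 in a global alignment, 7 and 5 of them, with gaps not marked.
Dcpp1: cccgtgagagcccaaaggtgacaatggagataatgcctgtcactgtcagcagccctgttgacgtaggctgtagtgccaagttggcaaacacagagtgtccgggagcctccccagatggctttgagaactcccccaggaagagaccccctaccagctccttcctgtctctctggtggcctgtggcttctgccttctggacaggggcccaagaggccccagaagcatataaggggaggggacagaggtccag
Dcpp2: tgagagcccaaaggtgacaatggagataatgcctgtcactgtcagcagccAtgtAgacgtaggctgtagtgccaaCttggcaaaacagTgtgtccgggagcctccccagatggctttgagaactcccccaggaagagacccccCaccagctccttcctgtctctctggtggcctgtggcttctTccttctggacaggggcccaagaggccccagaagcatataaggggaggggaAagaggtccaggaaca
Dcpp3: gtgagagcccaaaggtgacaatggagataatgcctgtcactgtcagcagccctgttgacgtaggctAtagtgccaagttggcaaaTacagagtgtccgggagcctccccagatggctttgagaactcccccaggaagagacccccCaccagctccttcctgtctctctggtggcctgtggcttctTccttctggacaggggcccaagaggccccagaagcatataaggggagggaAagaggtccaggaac

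Upstream of the start the 3 Dcpp genes were 93.3% to 96.4% identical over aligned columns, gaps counted as differences, whereas over the 300-base windows of the table Scgb1b27 and Scgb2b27 aligned at 50.4%, close to the 48.6% of Scgb1b27 with Prol1. CANNTG occurred in all 6 sequences and in 66.2% of 32851 mouse promoter windows of the same 250 bases. TATAA, searched on both strands, occurred in each Dcpp sequence, starting 26, 31 and 29 bases before the start of Dcpp1, Dcpp2 and Dcpp3, and in 22.8% of all windows. Neither TTCNNNGAA, the STAT motif (7.02% of windows), nor AGAACA, a half-site of steroid receptors (16.1%, both strands), was among the letters of these 6 windows. Probe sequences were not used here, so the split of signal between the Dcpp1 and Dcpp2 probe sets, and between those of Scgb2b27 and other secretoglobins, is uncertain.

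As a check of the tissue, 10 of 19 measured luminal epithelial genes and 9 of 17 measured milk genes had a mean of at least 9 log2. The luminal markers Epcam and Krt18 averaged 11.42 ± 0.46 and 10.85 ± 0.49 log2 (SD, n = 50). Others of that list were lower, with Krt7 at 7.08 ± 0.62 and Krt19 at 4.82 ± 0.62 (SD, n = 50), and Krt19 was highest in mid60 at 8.86. By their mean correlation with the others, 3 arrays stood apart, mid79 at 0.916, mid60 at 0.931 and mid100 at 0.954 against a median of 0.978. The summed level of 15 skin genes was highest in mid60 (13.77 log2, median 8.57), that of 12 fat cell genes in mid79 (15.16, median 10.22) and that of 15 muscle genes in mid100 (14.59, median 9.41), while Erbb2 was lowest in mid60. Results that rest on these arrays are given with and without them. In such bulk samples, fewer cells of a type and less RNA per cell cannot be told apart.

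Scgb1b27 was spread over a wide range of levels, up to among the brightest signals of an array. Its values ran from 4.62 log2 in mid60 over a median of 7.88 to 12.81 in mid130, with a mean of 8.05 ± 2.50 (SD, n = 50). The tumours were spread along the whole range, with 14 below 6, 14 from 6 to 8, 8 from 8 to 10 and 14 at 10 or above. The 5th and 95th percentiles lay 170-fold apart, and its SD was the second largest of the tested genes. The next highest tumours were mid37 at 12.44 and mid147 at 12.28.

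Scgb2b27, its partner subunit, was high in most tumours and low in few. It ran from 3.58 log2 in mid60 over a median of 10.58 to 12.93 in mid130, with a mean of 10.30 ± 1.87 (SD, n = 50). In 31 tumours it was at 10 or above and in 1 below 6, and the gap between mid60 and the next lowest tumour, mid79 at 6.81, was 3.23. Its SD was 1.56 without mid60, mid79 and mid100. On 37 of 50 arrays its probe set was among the brightest 5% of all probe sets, as Scgb1b27 was on 14.

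Prol1 was below 8 log2 in most tumours and reached 10 in few. Its values ran from 4.04 log2 in mid60 over a median of 6.72 to 12.10 in mid130, with a mean of 6.87 ± 1.95 (SD, n = 50). It lay below 6 in 19 tumours, from 6 to 8 in 18, from 8 to 10 in 9 and at 10 or above in 4. The value of mid130 stood 1.36 above that of the next tumour, mid36 at 10.74.

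Dcpp1 and Dcpp2 were below 8 log2 in most tumours and had a long upper tail. Dcpp1 ran from 4.68 log2 in mid100 over a median of 6.32 to 10.80 in mid65, with a mean of 7.07 ± 1.78, and Dcpp2 from 4.61 in mid100 over 5.63 to 10.63 in mid128, with a mean of 6.65 ± 1.84 (SD, n = 50 each). Below 6 lay 18 tumours for Dcpp1 and 27 for Dcpp2. At 10 or above were 5 tumours for Dcpp1 and 3 for Dcpp2, with mid65, mid105 and mid128 at that level for both genes.

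**Figure D1:**
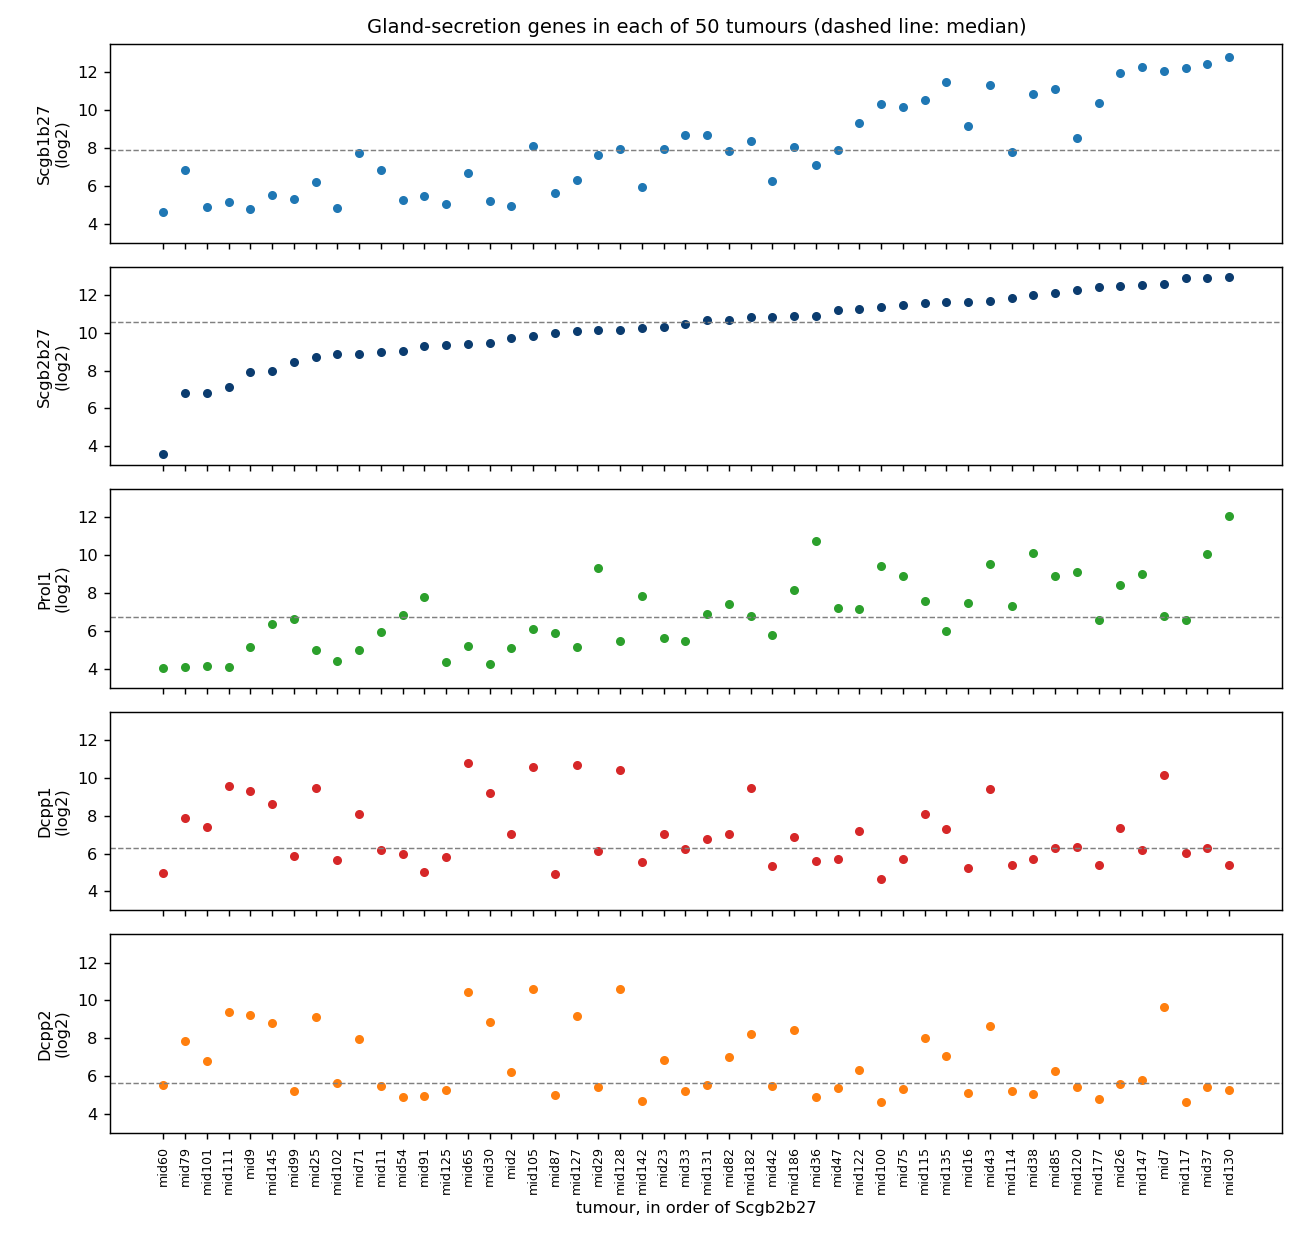
Levels of the 5 genes (log2, vertical axes) in each of the 50 tumours, placed from left to right in the order of Scgb2b27; 1 point is 1 array and the dashed line is the gene's median. Scgb1b27 and Prol1 climb with Scgb2b27 toward mid130, whereas high Dcpp1 and Dcpp2 values, up to 10.80 and 10.63, lie at low and high Scgb2b27 levels, among them 10.14 and 9.66 in mid7, whose Scgb2b27 was 12.56.

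Over the tumours the genes fell into 2 sets, the 2 secretoglobins with Prol1 and the 2 Dcpp genes. Relations were tested by permuting tumours (two-sided, 100000 permutations), with p-values adjusted over 40 relations, of which 10 are pairs of these genes. Scgb1b27 and Scgb2b27 rose together with r = 0.81 and rho = 0.89 (permutation test, adjusted p = 0.0001 for both). Before adjustment the permutation test gave p = 1e-05 for both, the smallest that these permutations can give. With mid130 and mid37 left out, the tumours most distant from the Scgb1b27 median, r was 0.80. The 22 tumours with Scgb1b27 of at least 8 also had Scgb2b27 of at least 8, while another 22 reached that level for Scgb2b27 alone and 6 for neither gene. Prol1 followed both, with r = 0.65 and rho = 0.66 for Scgb1b27 and r = 0.69 and rho = 0.74 for Scgb2b27 (permutation test, adjusted p = 0.0001 for each; r = 0.59 and 0.68 with the 2 most distant tumours left out). The 13 tumours with Prol1 of at least 8 all had Scgb2b27 of at least 8, but so had most tumours. Another 31 reached that level for Scgb2b27 alone and 6 for neither gene. Of the 10 highest tumours for each gene, 5 were shared between Prol1 and Scgb1b27 and 8 between Scgb1b27 and Scgb2b27.

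Dcpp1 and Dcpp2 rose together with r = 0.95 and rho = 0.89 (permutation test, adjusted p = 0.0001 for both; r = 0.95 without the 2 farthest tumours). Both were at 8 or above in 12 tumours and both below it in 35, so 3 tumours had 1 of them alone at that level. Whether each probe set also reads the RNA of the other gene was not tested.

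Between the sets, Prol1 and the Dcpp genes moved in opposite directions. Prol1 and Dcpp2 had r = -0.40 (permutation test, adjusted p = 0.0187) and rho = -0.43 (adjusted p = 0.0146), and r = -0.37 without mid130 and mid36 (adjusted p = 0.0741). Prol1 and Dcpp1 had r = -0.38 (permutation test, adjusted p = 0.0276), with rho = -0.35 (adjusted p = 0.0542) and r = -0.33 with mid130 and mid36 left out (adjusted p = 0.105). In 1 tumour, mid43, both Prol1 and Dcpp1 were at 8 or above, while 12 had Prol1 alone, 13 Dcpp1 alone and 24 neither. The 4 relations of a secretoglobin with a Dcpp gene lay between r = -0.07 and -0.25 and did not pass.

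**Figure D2:**
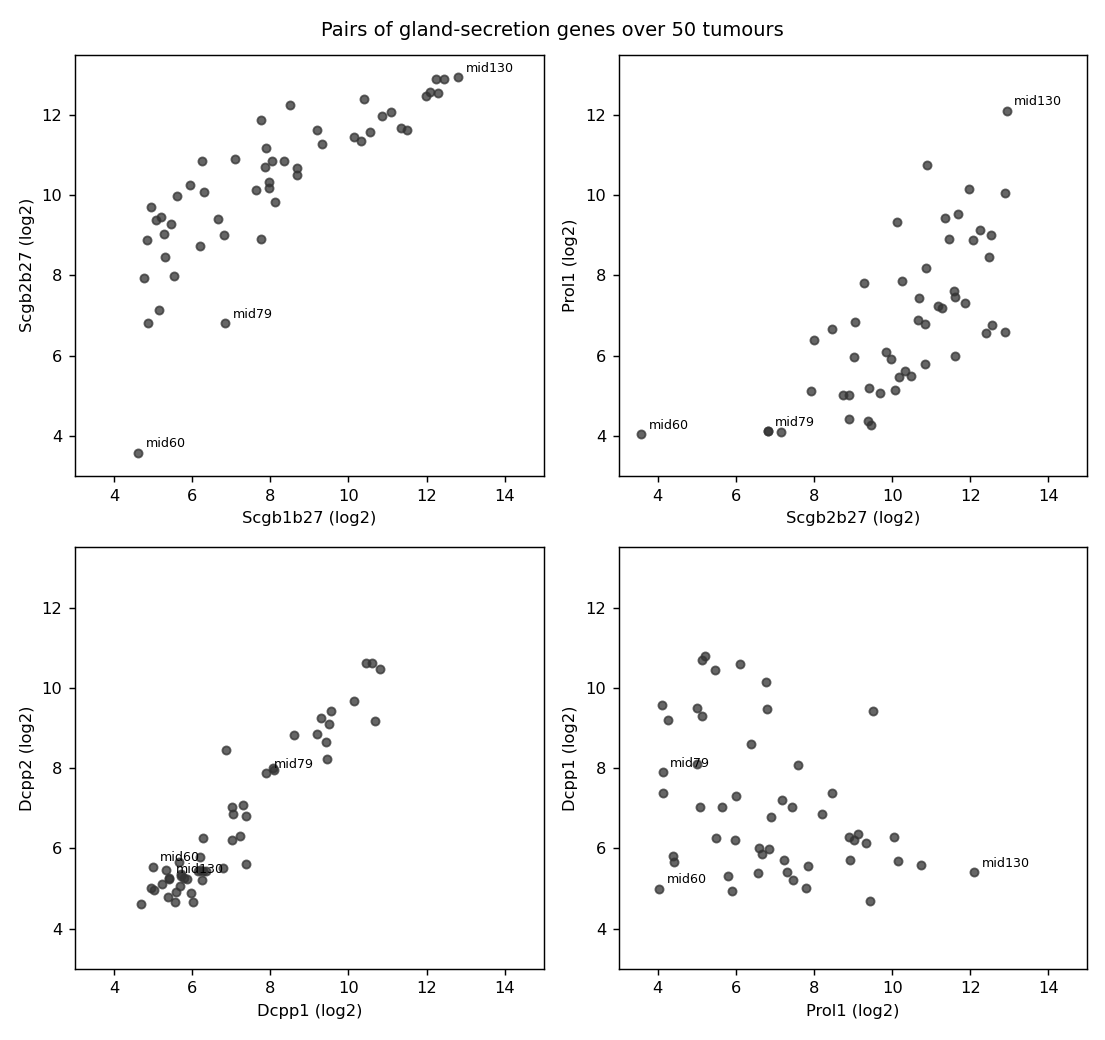
Levels of 4 pairs of the genes (log2 on both axes, 1 point per tumour, 50 tumours), with mid60, mid79 and mid130 named. Scgb1b27 with Scgb2b27, Scgb2b27 with Prol1 and Dcpp1 with Dcpp2 rise together (r = 0.81, 0.69 and 0.95), and the panel of Prol1 with Dcpp1 has an almost empty upper right corner.

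Of the 5 genes, Scgb2b27 had the most genes called with it, though with array weights it had 1953 and Prol1 2033. Every other tested gene was regressed on the level of the member over the 50 tumours (limma, Benjamini-Hochberg over 18044 genes, called under an adjusted p of 0.05), with the slope given in log2 per SD of the member. For Scgb2b27, 1822 genes (10.1%) had a positive and 1700 (9.42%) a negative slope (19.5% called), and 1385 were called without mid60 and mid79, the tumours farthest from its median. Scgb2b7, another secretoglobin, had the largest statistic. It ran from 4.53 over 6.92 to 8.66 log2 and had a slope of 0.97 ± 0.04 (SE, limma adjusted p = 1.52e-24). Whether its probe set also reads Scgb2b27 was not tested.

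Odr4, which helps receptors leave the endoplasmic reticulum, ran from 7.13 log2 in mid60 over 9.34 to 9.87 in mid130, with a slope of 0.40 ± 0.03 on Scgb2b27 (SE, limma adjusted p = 2.36e-14). Rab3d, a GTPase of secretory granules, ran from 6.79 in mid60 over 8.58 to 9.27 in mid7. Its slope was 0.37 ± 0.04 (SE, limma adjusted p = 1.97e-09). Tmed3, a cargo receptor between endoplasmic reticulum and Golgi, had a slope of 0.35 ± 0.03 (SE, limma adjusted p = 3.13e-11). Tram1, a protein of the translocation channel, Gpr108, a Golgi-resident receptor-like protein, and Aass, an enzyme of lysine breakdown, had slopes between 0.18 and 0.62, each with a limma adjusted p of 1.97e-09. A call without mid60 and mid79 was a condition for naming these genes, and they also kept it without the 3 arrays that stood apart, with smaller slopes without those arrays (0.28 for Odr4 and 0.25 for Tmed3). On the negative side stood Fhl2, a LIM-domain protein, with a slope of -0.36 ± 0.04 (limma adjusted p = 2.07e-08), the receptor phosphatase Ptprs, the transporter Slc22a23 and the calcium-binding protein S100a6 (-0.79 ± 0.10, SE, limma adjusted p = 1.12e-07). S100a6 ran from 5.96 over 7.73 to 11.39 log2 and was highest in mid60.

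Of 11 tested regulators and channels of salivary acinar and duct cells, 10 rose with Scgb2b27 and 0 fell, with a median slope of 0.41 against 0.001 over all tested genes. Bhlha15, the factor Mist1 that drives the secretory apparatus of serous exocrine cells, ran from 6.33 log2 in mid60 over 8.10 to 9.61 in mid7, with a slope of 0.50 ± 0.05 (SE, limma adjusted p = 2.53e-09). Kcnn4, a calcium-activated potassium channel, had a slope of 0.55 ± 0.07 and Spdef, an ETS factor of secretory cells, 0.41 ± 0.06 (SE). The others called were the muscarinic receptor gene Chrm3, the chloride channel gene Ano1, Xbp1, Foxi1, Etv1, Sox10 and Creb3l1. Without mid60 and mid79, 6 of 11 were called, and without the 3 arrays 7. Chrm3 (adjusted p = 0.0867), Foxi1 (0.271), Sox10 (0.486) and Creb3l1 (0.439) lost the limma call without mid60 and mid79.

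Of 19 tested genes of salivary secretion other than the members, 7 rose with Scgb2b27 and 0 fell, and the same number were called without mid60 and mid79. The median slope of the list was 0.03. Car6, the carbonic anhydrase secreted in saliva and milk, ran from 6.44 log2 over 9.61 to 12.86 in mid130 and had a slope of 1.21 ± 0.13 (SE). Egf had a slope of 0.79 ± 0.10, and the water channel Aqp5 one of 0.66 ± 0.08, from 7.31 over 12.12 to 12.75 log2. The ion transporter Slc12a2, the whey acidic domain gene Wfdc18, Oit1 and the cystatin gene Cst10 were the other 4.

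The label of a salivary type held for part of the listed products. Of 28 measured salivary genes other than the members, 12 stayed below 6 log2 in every tumour. In mid130, where Scgb1b27, Scgb2b27 and Prol1 were highest, the amylase gene Amy1 was at 3.60, Smr3a at 3.08, the proline-rich protein gene Prb1 at 4.11, the mucin gene Muc19 at 4.96 and the kallikrein gene Klk1b9 at 4.06. In the same tumour Pip, a secreted protein of saliva and milk, was at 6.92 and Cst10 at 6.41, the highest of all tumours, and Bpifa2, the parotid secretory protein, was at 6.13. Smr2, a submaxillary gland gene beside Prol1, reached 10.12 in mid54 and had a median of 4.13. These genes of mid130 and mid54 were chosen after their values were seen.

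Genes of fibroblasts and matrix fell as Scgb2b27 rose: 18 of 20 had a negative call and 0 a positive one, with a median slope of -0.45. Without mid60 and mid79 3 of 20 were called, and without the 3 arrays 13. Fbln2, fibulin 2, ran from 6.22 over 8.07 to 10.20 log2 and had a slope of -0.49 ± 0.10 (SE, limma adjusted p = 0.000459), with an adjusted p of 0.00229 without mid60 and mid79. The mean standardised level of the 20 genes and Scgb2b27 had r = -0.47 (permutation test, adjusted p = 0.00456) and rho = -0.44 (adjusted p = 0.0117), but r = -0.36 and an adjusted p of 0.0741 without these 2 tumours. The summed level of the 20 genes ran from 10.99 log2 in mid115 over 12.72 to 15.16 in mid9, and was 14.33 in mid60, 14.46 in mid79 and 11.68 in mid130. Its part in the relations of Scgb2b27 was not tested beyond a fit with luminal, proliferation and fibroblast levels as covariates. This fit, added after seeing the data and with mid60 and mid79 kept, called 10 of the 11 salivary regulators. It also had negative calls for 10 of 12 skin genes and 7 of 10 B and plasma cell genes.

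Several relations of Scgb2b27 rested on mid60 and mid79. Its r with Erbb2 was 0.53 (permutation test, adjusted p = 0.0074), but rho was 0.17 (adjusted p = 0.436) and r was 0.004 without these tumours (adjusted p = 0.98). Negative calls for skin genes (10 of 12), B and plasma cell genes (6 of 10) and basal genes (6 of 10) numbered 0, 0 and 1 without them. The relation with the mean correlation of the array had r = 0.51 (permutation test, adjusted p = 0.0105), rho = 0.16 (adjusted p = 0.446) and r = 0.06 without the 2 tumours.

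Scgb1b27 was followed by fewer genes, 286 (1.59%) with a positive and 155 (0.859%) with a negative slope (2.44% called), and by 174 without mid130 and mid37. After Scgb2b7 (0.87 ± 0.07) and Scgb2b27 (1.53 ± 0.15) came Klk1b11, a kallikrein of a family with many close copies, which ran from 4.89 over 6.94 to 9.07 log2 and had a slope of 0.70 ± 0.11 (SE, limma adjusted p = 0.00021). Ero1b, an oxidase that serves disulfide formation in the endoplasmic reticulum, had a slope of 0.34 ± 0.05, and Lrrc26, an auxiliary subunit of potassium channels in secretory epithelia, 0.65 ± 0.10 (SE, limma adjusted p = 0.00021 each). Bhlha15 had a slope of 0.41 ± 0.07 (limma adjusted p = 0.00024). The largest negative statistics were those of the cytoskeletal genes Cnn2 and Pls3, of Fhl2 and of Kctd17, with slopes between -0.50 and -0.24. Of the salivary lists 5 of 19 secretion genes and 2 of 11 regulators rose and 0 fell.

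Prol1 was followed by 701 genes (3.88%) with a positive and 425 (2.36%) with a negative slope (6.24% called), and by 489 without mid130 and mid36. Odam, a secreted protein of ameloblasts whose gene lies in the casein cluster, had the largest statistic. It ran from 3.93 log2 over 4.83 to 9.58 in mid130 and had a slope of 0.98 ± 0.12 (SE, limma adjusted p = 5.45e-07; 0.000172 without mid130 and mid36). Car6 came next with 1.13 ± 0.14 (SE, limma adjusted p = 2.39e-06). Srpr, the receptor of the signal recognition particle, had a slope of 0.20 ± 0.03, Qars, a glutaminyl-tRNA synthetase, 0.19 ± 0.03, and Secisbp2l 0.41 ± 0.06 (SE). Vopp1 and Pdxk, pyridoxal kinase, completed the largest 8 with Scgb2b27. On the negative side were Cyp39a1, an oxysterol hydroxylase (-0.46 ± 0.07, SE, limma adjusted p = 0.000128), the kinase gene Prkd1, Ssbp2 and the annexin gene Anxa3.

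Of the lists, 6 of 19 salivary secretion genes, 4 of 11 regulators and 5 of 17 milk genes rose with Prol1 and 0 fell, with median slopes of 0.07, 0.23 and 0.16 against -0.007 over all tested genes. Without mid130 and mid36, 5 secretion genes and 3 regulators rose and 0 fell. Without the 3 arrays that stood apart, 6 secretion genes and 4 regulators rose, and 1 regulator fell. Xbp1, a factor that expands the endoplasmic reticulum, had a slope of 0.30 ± 0.05 (SE, limma adjusted p = 0.000331), and Lalba, alpha-lactalbumin, 0.56 ± 0.12 (limma adjusted p = 0.00263). The number of milk genes called was 1 without mid130 and mid36, and the mean standardised milk level had r = 0.38 with Prol1 (permutation test, adjusted p = 0.0276), rho = 0.33 (adjusted p = 0.0769) and r = 0.27 without them (adjusted p = 0.213).

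Apart from Wtip and Pdcd2l, the measured neighbours of Prol1 and of the secretoglobin pair had low mean levels, up to 4.57 log2 in Amtn. Of the 3 measured genes on either side of Prol1, Smr3a, Smr2, Gm7714, Amtn, Ambn and Enam, 0 were called with it in limma (0 at an unadjusted p under 0.05), 3 of them being too low to be tested, and Smr2 had a slope of 0.24 ± 0.15 (SE, limma adjusted p = 0.361). The caseins Csn1s1, Csn2 and Csn1s2a were not called with Prol1 either. Csn3, the kappa casein, ran from 10.64 in mid60 over 12.75 to 13.13 log2 and rose with Scgb2b27 by 0.29 ± 0.04 (SE, limma adjusted p = 1.85e-07). Without mid60 and mid79 its slope was 0.11 (limma adjusted p = 0.00154). Beside the secretoglobin pair, Scgb2b26 and Scgb1b24 stayed low in most tumours, with medians of 3.45 and 2.98 log2, although Scgb2b26 reached 6.53 in mid117. Wtip, the nearest gene of another family, rose with Scgb2b27 by 0.14 ± 0.03 (SE, limma adjusted p = 0.000147), and had an adjusted p of 0.0483 without mid60 and mid79. Of 21 other measured secretoglobins 18 had an SD below 0.25, against a median SD of 0.23 over all tested genes. Only 6 of the 21 reached the mean level for testing.

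**Figure D3:**
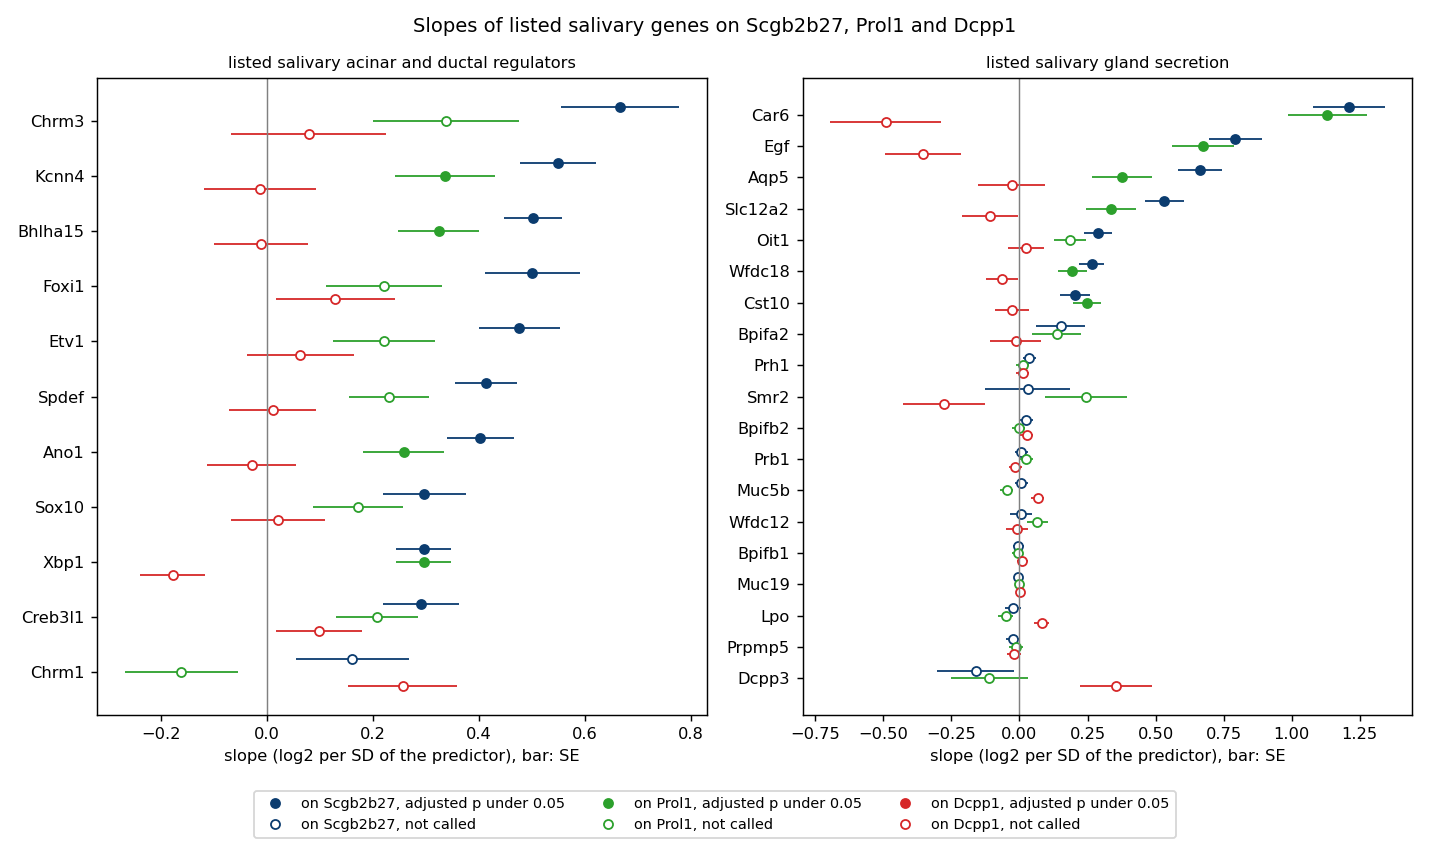
Slopes with SE (log2 per SD of the predictor) of 11 salivary regulators and 19 salivary secretion genes on Scgb2b27, Prol1 and Dcpp1 over 50 tumours; filled points are called (limma, adjusted p under 0.05). On Scgb2b27, 10 and 7 points are filled and on Prol1 4 and 6, while on Dcpp1 0 are filled in both panels.

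Most genes that fell as Dcpp1 and Dcpp2 rose lay on chromosome 4. Of 17 milk genes 1 was called with either gene, Plin2, a coat protein of lipid droplets, and its gene is also on chromosome 4. The slope of Plin2 was -0.32 ± 0.07 on Dcpp1 (SE, limma adjusted p = 0.00811) and -0.30 ± 0.07 on Dcpp2 (adjusted p = 0.0186, and 0.0844 with the 2 most distant tumours left out). Without the 3 arrays that stood apart, 4 milk genes fell with Dcpp1 and 3 with Dcpp2, and without the 2 farthest tumours 2 and 0. Among those called without the 3 arrays was Muc15 on chromosome 2, with slopes of -0.34 on Dcpp1 and -0.35 on Dcpp2 (limma adjusted p = 0.0332 and 0.0282). For Dcpp1, 313 genes (1.73%) had a positive and 365 (2.02%) a negative slope (3.76% called). For Dcpp2, 481 genes were called (2.67% called), 295 (1.63%) with a negative slope and 1.03% with a positive one. In limma, 0 of the 19 salivary secretion genes and 0 of the 11 regulators were called with Dcpp1 or Dcpp2. Without the 3 arrays that stood apart 1 regulator, Xbp1, was called, with slopes of -0.21 on Dcpp1 and -0.20 on Dcpp2 (limma adjusted p = 0.0153 and 0.0247). At an unadjusted p under 0.05, 3 secretion genes were positive and 2 negative with either gene, and of the regulators 1 was positive and 1 negative with Dcpp1. When Scgb2b27 and Dcpp1 were put in the same fit, added after seeing the data, their slopes differed for 2205 of 18043 genes (12.2% called), among them 8 of the 11 regulators and 6 of the 19 secretion genes. Dcpp3 ran from 5.02 over 5.95 to 10.82 log2 in mid9, and its slopes on Dcpp1 (0.35 ± 0.13, SE, limma adjusted p = 0.122) and Dcpp2 (0.44 ± 0.13, adjusted p = 0.0502) did not pass. The serine protease genes beside Dcpp1, Prss21, Prss32 and Prss41, were not called with it.

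Of the 363 placed genes with a negative slope on Dcpp1, 262 (72.2%) lay on chromosome 4, which holds 6.0% of the tested genes. They made up 24.4% of the 1074 tested genes of that chromosome, and when its genes were cut in map order into 5 equal bins, each bin held 38 to 73 of them. For Dcpp2 the count was 218 of 293 (74.4%). With the 2 most distant tumours left out the share was 76.4% for Dcpp1, and without the 3 arrays that stood apart 54.1%, and for Dcpp2 58.6%. Examples are Ago4, an Argonaute gene (-0.26 ± 0.05, SE, limma adjusted p = 0.00275), Fkbp15 (-0.21 ± 0.04) and 2510039O18Rik (-0.25 ± 0.04) for Dcpp1, and Cpne3 (-0.22 ± 0.04, limma adjusted p = 0.00203), the histone demethylase gene Kdm4c, Dcaf10 and the choline transporter gene Slc44a1 for Dcpp2. Ago4 ran from 4.89 over 5.59 to 6.51 log2.

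**Figure D4:**
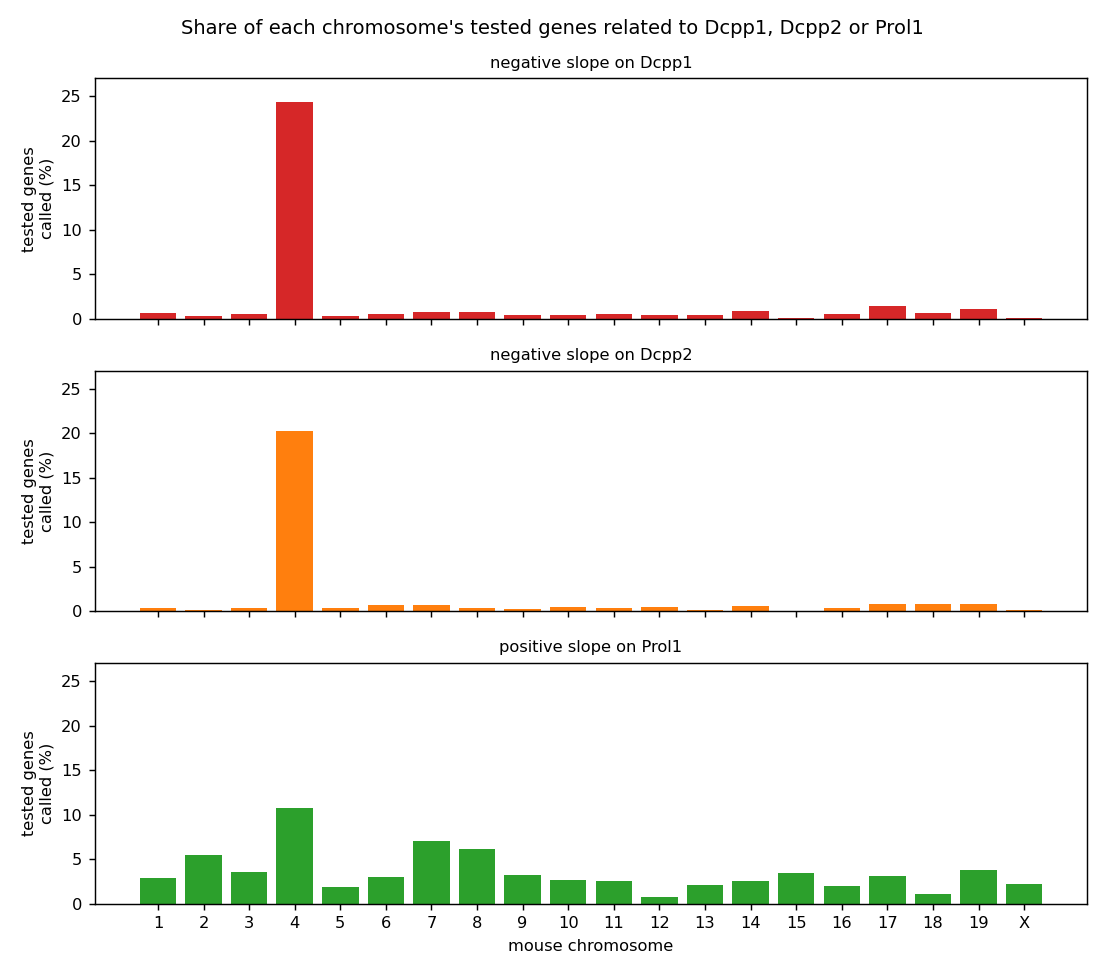
Percent of each mouse chromosome's tested genes called (limma, adjusted p under 0.05) with a negative slope on Dcpp1 or Dcpp2, or a positive slope on Prol1. Chromosome 4 stands out at 24.4% for Dcpp1 and 20.3% for Dcpp2, and is also the highest for Prol1, at 10.8%.

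A level for chromosome 4, the mean standardised value of its tested genes minus the median over chromosomes, was added after seeing these counts. It ran from -0.56 in mid105, where Dcpp1 was 10.59 and Dcpp2 10.62 log2, to 0.66 in mid87, where they were 4.94 and 5.01. Its r was -0.56 with Dcpp1 (rho = -0.62; permutation test, adjusted p = 0.00036 over 45 relations) and -0.52 with Dcpp2 (rho = -0.55, adjusted p = 0.000975), and -0.57 and -0.47 without the 2 farthest tumours. With Scgb1b27, Scgb2b27 and Prol1 it was -0.11, 0.03 and 0.29, which did not pass (adjusted p = 0.614, 0.867 and 0.131). Without the 3 arrays that stood apart, Prol1 passed (r = 0.37, permutation test, adjusted p = 0.0411). Low values also occurred with low Dcpp levels: mid16, at -0.55, had 5.22 for Dcpp1 and 5.11 for Dcpp2. With the chromosome 4 level as a covariate, 1 gene was called for Dcpp1 and 1 for Dcpp2, each time the other of the pair, with slopes of 1.76 ± 0.10 and 1.60 ± 0.09 (SE). As the covariate is made from genes that the regression also counted, its removal of the chromosome 4 calls is no separate result.

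**Figure D5:**
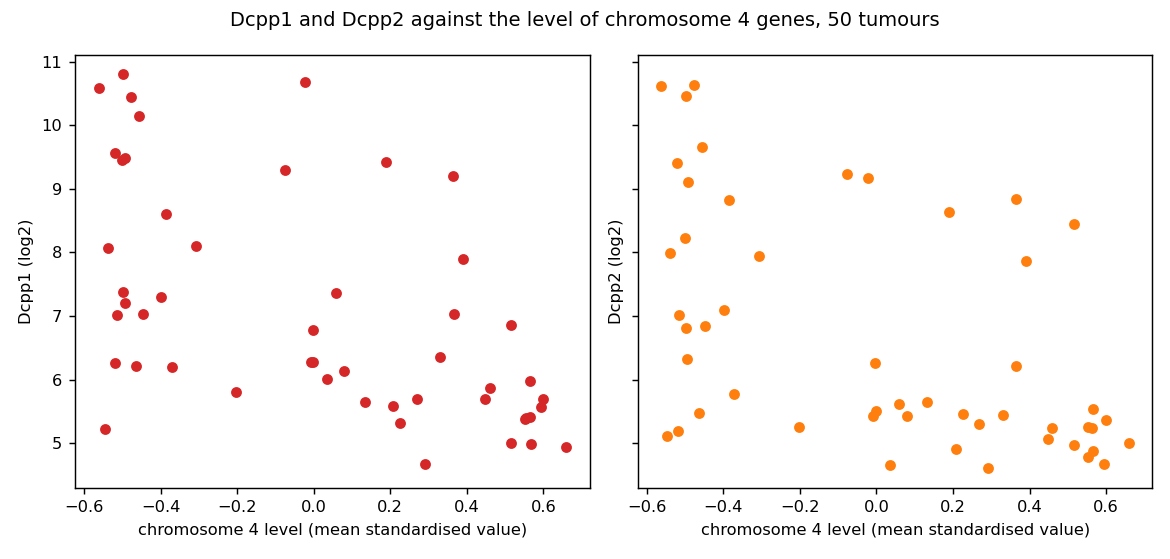
Dcpp1 and Dcpp2 (log2, vertical axes) against the level of chromosome 4 genes (mean standardised value minus the median over chromosomes, horizontal axis), 1 point per tumour, 50 tumours. Points fall from upper left to lower right (r = -0.56 and -0.52), with low Dcpp values also found at the left, as in mid16.

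Genes with a positive slope on Dcpp1 lay on many chromosomes. Pds5b, a cohesin regulator, ran from 7.77 over 8.38 to 8.92 log2, with a slope of 0.18 ± 0.03 (SE, limma adjusted p = 0.00275). Pglyrp1, a peptidoglycan recognition protein, ran from 6.82 over 9.57 to 11.22 and had a slope of 0.82 ± 0.15 (limma adjusted p = 0.0028). Rspo3, an R-spondin that strengthens Wnt signals, ran from 4.89 over 6.59 to 8.21 and rose with Dcpp1 by 0.58 ± 0.11 and with Dcpp2 by 0.56 ± 0.11 (SE, limma adjusted p = 0.00305 and 0.00643). Adgrl1, a latrophilin, Dhh, desert hedgehog, Aif1l and Gm19385 were also among the 8 largest for Dcpp1, and Chadl, Cmtm5, Selenoh and 5031434C07Rik among those for Dcpp2. Dpp4, a cell surface peptidase whose gene is on chromosome 2, ran from 4.72 over 6.57 to 8.90 and fell with Dcpp1 by 0.70 on the log2 scale per SD (limma adjusted p = 0.00275). With the chromosome 4 level as a covariate their adjusted p-values were between 0.754 and 0.88. Their slopes were then smaller by unequal amounts, 0.29 for Dhh against 0.40 without the covariate, 0.13 for 5031434C07Rik against 0.17, and 0.28 for Pglyrp1 against 0.82.

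Some genes that rose with Prol1 also lay on chromosome 4. Of 695 placed genes with a positive slope on Prol1, 116 (16.7%) lay there, and 52 and 36 of them fell in the first and second of the 5 bins against 3 and 6 in the fourth and last. The share was 14.9% without mid130 and mid36 and 20.5% without the 3 arrays. Car6 lies on chromosome 4, and its slope on Prol1 was 1.03 with the chromosome 4 level as a covariate (limma adjusted p = 1.15e-05). With the chromosome 4 level as a covariate, the slope of Prol1 on Dcpp1 was -0.62 ± 0.31 (SE, limma adjusted p = 0.903), against -0.73 ± 0.25 without the covariate, which was not called either (adjusted p = 0.0887), and its slope on Scgb2b27 1.34 ± 0.18 (adjusted p = 5.68e-07).

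Of 30 relations with Erbb2, milk, luminal, proliferation and fibroblast levels and array correlation, 5 passed by r, and 4 of them have been given. The fifth was that of Scgb1b27 with the fibroblast level, at r = -0.35 (permutation test, adjusted p = 0.0462), rho = -0.40 (adjusted p = 0.0264) and r = -0.31 without mid130 and mid37 (adjusted p = 0.122). Dcpp2 and the proliferation level had rho = 0.38 (permutation test, adjusted p = 0.0335) but r = 0.25 (adjusted p = 0.185). Luminal levels passed with none of the 5 genes, the highest r being 0.17 for Prol1. Single luminal genes were called in both directions, which such a mean level does not show. Of 19 tested in limma, 6 rose and 4 fell with Scgb2b27, against 2 and 1 without mid60 and mid79. With Prol1 3 rose and 0 fell, against 1 and 0 without mid130 and mid36.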

How the data were processed

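RNA of 50 tumour biopsies was measured on 1 array each, and the number of arrays limits the precision. The deposited values are log2 expression, which the authors made with RMA per the submitters' processing notes, for 34472 probe sets. Those notes also name the build mm8, without its role, and which RMA version ran was not given in the sources used here. RMA makes array distributions alike and compresses low values, so folds of low genes are understated.

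In GEO's platform annotation 23521 probe sets had 1 gene, 1814 had several and 9137 had no gene. Names came from the first kind alone, using the probe set with the highest mean. Each of the 5 genes had 1. The 18045 tested genes had a mean of at least 4.09, the 25th percentile of probe sets. The RefSeq table on GRCm38.p6 gave names, chromosomes (17905 tested genes placed) and order alone.

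The genes, lists and tests were chosen with earlier results of these data known. Regressions used limma 3.58.1 (lmFit, eBayes with trend). Permutation tests used scipy 1.17.1 and numpy 2.4.6, and p-values were adjusted by Benjamini-Hochberg. Genes were named by a rule: for each of the 5 genes the 8 largest positive and 4 largest negative statistics among calls kept without the 2 farthest tumours, the 3 largest in each of 18 lists, all secretoglobins, Dcpp genes and casein cluster genes, 3 neighbours on either side, and Erbb2. Others were named after their values were seen. The scripts were tested on simulated data.

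The labels do not say that each tumour came from a mouse of its own, so p-values measure the spread between these samples. Alternatives were other filters, probe set averages, a further quantile normalization, ranks, array weights, and tumours or arrays left out. Other software was R 4.3.3, Python 3.11.15 with pandas 2.3.3, and matplotlib 3.10.9.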

Additional observations from a re-analysis of the deposited data

How the results depend on the processing

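Of 138 calls of a named gene with a member, 98 held without the 2 farthest tumours, a condition for some of the names, and 137 with another quantile normalization. Muc4 on Scgb2b27 turned to 0.0101 with ranks, 0.0188 without the 3 arrays and 0.0194 without mid60 and mid79, and Krt19 on Scgb2b27 to 0.0059 without mid60 and mid79. No paired analysis was possible because all tumours form 1 group. No filter, the 50th percentile filter, probe set means and quantile normalization left every count within 1.5 times of the reported one. For the counts and relations that changed, the cause was not tested.

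With ranks, 829 genes were called for Scgb1b27, 2137 for Scgb2b27 and 797 for Dcpp2. With array weights the counts were 799 for Scgb1b27, 1953 for Scgb2b27, 2033 for Prol1, 1776 for Dcpp1 and 1570 for Dcpp2. Without the 2 farthest tumours they were 174, 1385 and 489 for Scgb1b27, Scgb2b27 and Prol1, and 202 for Dcpp2. Without the 3 arrays they were 1679 for Scgb2b27, 1132 for Dcpp1 and 905 for Dcpp2. With cell type covariates, added after seeing the data, they were 198 for Scgb1b27, 1836 for Scgb2b27 and 228 for Dcpp2. With the chromosome 4 level, also added, they were 677 for Scgb1b27, 1 for Dcpp1 and 1 for Dcpp2.

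Prol1 with Dcpp1 lost its call by rho (-0.35) and without 2 tumours (-0.33), as did Prol1 with the milk level (0.33 and 0.27). Without 2 tumours, so did Prol1 with Dcpp2 (-0.37) and the fibroblast level with Scgb1b27 (-0.31) and Scgb2b27 (-0.36). Scgb2b27 with Erbb2 lost it by rho (0.17), without mid60 and mid79 (0.0038) and without the 3 arrays (0.0193), and with array correlation likewise (0.16, 0.055 and 0.19). Dcpp2 with proliferation passed by rho (0.38) and without the 3 arrays (0.36), as did Dcpp1 without them (0.36).

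Relations that did not pass turned sign as follows. Scgb1b27 had -0.0622 with milk without 2 tumours, -0.0201 with luminal by rho, -0.0212 without 2 tumours and -0.0098 with probe set means, and -0.0149 with proliferation by rho. Scgb2b27 had -0.0248 with luminal by rho and -0.0288 without mid60 and mid79, and -0.0352 and -0.0063 with proliferation. Prol1 had -0.0367 with Erbb2 without the 3 arrays, and -0.13 with proliferation by rho and -0.0849 without the 3 arrays. Dcpp1 had 0.0766 with the fibroblast level without the 3 arrays, and Dcpp2 0.0032 with luminal by rho.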
